A study of Mus musculus with 96 samples.

Results

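Among single mouse cells treated with RO-3306, the third with the most Cdkn1a transcript was compared with the third with the least. Of 48 treated libraries, 37 passed a minimum of 50000 counts and 1000 genes with a count. They were ranked by Cdkn1a in counts scaled to a library total of 1e6 (CPM), and the 12 highest formed the high side and the 12 lowest the low side. These 24 cells are part of 96 libraries in the series, and the 13 treated cells between the sides and 29 kept untreated cells are given beside them as reference. Cdkn1a chose the cells, so its own values are a description and it was left out of every result below.

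All cells belong to the mouse lung line C10, labelled as alveolar type II epithelium and grown in RPMI with FBS. Treated cells received RO-3306, marketed as a blocker of the mitotic kinase CDK1, at a labelled 10 nM for 36 h. RO-3306 is commonly used at micromolar doses, and whether the labelled unit is right could not be checked here. Control cells carry the treatment label none. Cells were dispensed one by one with a CellenONE instrument, and SMART-seq v4 libraries were read from one end over 150 nt. The method, nanoSPLITS, divides the lysate of 1 cell so that transcripts and proteins can both be read, and the protein part was not analysed here. No label names a culture, so each side counts as 1 sample, cells are not replicates, differences carry no replicate check and no p-value was computed. Intervals cover counting error only, and counts include PCR copies because the reads carry no molecular identifiers.

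Several defining markers of the labelled cell type were absent. The surfactant genes Sftpa1, Sftpc and Sftpd and the type II markers Slc34a2 and Napsa were at 0 in all 37 kept treated cells, and Sftpb had a count in 1. Of the other 4 genes of the type II list of 10, Abca3, Lpcat1, Etv5 and Lamp3 had counts in 12, 17, 11 and 7 of the 37 cells, with summed medians of 21.4 CPM in high (0 to 75.6) and 17.0 CPM in low cells (0 to 349). The alveolar type I list of 8 genes summed to medians of 665 CPM (74.4 to 3335) and 375 CPM (0 to 2098). Cav1, a caveola gene that many other cell types express too, had means of 965 and 461 CPM, whereas Ager and Aqp5 were at 0 in all 37 cells. The epithelial list of 7 genes summed to a median of 0 CPM on both sides, with a highest cell of 27.1 CPM on the low side and 48.2 CPM on the high side. Vim, an intermediate filament gene of mesenchymal cells, had a mean of 1396 CPM on the high side and 1288 CPM on the low side, with a count in all 37 cells. The macrophage list of 10 genes summed to medians of 42.3 CPM in high (0 to 322) and 51.5 CPM in low cells (0 to 436). In control cells the median was 6.1 CPM (0 to 314). Of this list, Adgre1, Csf1r, Tyrobp and Marco were at 0 in all 37 cells, whereas Lyz2, given below, had counts.

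Cdkn1a encodes p21, a protein that binds and inhibits cyclin-dependent kinases and the replication clamp PCNA. It is a textbook target of the transcription factor p53, and its accumulation holds cells in G1 or in G2, including cells that stop dividing for good. By the same background, p21 keeps RB family proteins active, and these hold down E2F targets needed for S phase and, through the DREAM complex, genes needed for mitosis. The genes of those branches are therefore ordered below from p53 and its targets to S phase, G2/M and the remaining lists.

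Promoter windows of a few genes of these branches are shown because the genes are grouped by the factors known to act on such sequences. The windows are from RefSeq on GRCm38.p6, run from 250 bases before to 50 after a gene start, and are printed 5′ to 3′ on the gene's strand. Capitals mark the p53 half-site in Cdkn1a and Mdm2, an E2F-type string in Dtl (the receptor of a ubiquitin ligase that degrades Cdt1 and p21), CCAAT in Rrm2 (a ribonucleotide reductase subunit) and a string like the cell cycle homology region (CHR) in Ckap2l (a spindle protein).
Cdkn1a, chr17:29090729-29091028, plus strand: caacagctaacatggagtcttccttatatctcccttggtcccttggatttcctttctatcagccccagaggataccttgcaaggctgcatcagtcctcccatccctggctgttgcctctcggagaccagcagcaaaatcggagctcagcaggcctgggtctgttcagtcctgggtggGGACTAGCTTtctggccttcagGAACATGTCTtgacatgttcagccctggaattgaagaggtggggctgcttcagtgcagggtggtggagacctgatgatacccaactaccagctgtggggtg
Mdm2, chr10:117710709-117711008, minus strand: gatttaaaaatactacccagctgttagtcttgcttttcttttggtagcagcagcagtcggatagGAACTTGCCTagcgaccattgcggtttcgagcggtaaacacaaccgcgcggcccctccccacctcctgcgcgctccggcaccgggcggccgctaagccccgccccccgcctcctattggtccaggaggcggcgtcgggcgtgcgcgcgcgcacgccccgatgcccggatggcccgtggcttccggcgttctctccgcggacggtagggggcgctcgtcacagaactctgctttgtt
Dtl, chr1:191575495-191575794, minus strand: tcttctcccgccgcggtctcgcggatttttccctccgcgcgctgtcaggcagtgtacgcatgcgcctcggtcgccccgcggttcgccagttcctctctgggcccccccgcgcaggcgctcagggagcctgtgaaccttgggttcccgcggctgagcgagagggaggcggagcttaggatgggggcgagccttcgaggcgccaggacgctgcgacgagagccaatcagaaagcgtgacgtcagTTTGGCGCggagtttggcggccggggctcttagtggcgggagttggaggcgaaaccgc
Rrm2, chr12:24708004-24708303, plus strand: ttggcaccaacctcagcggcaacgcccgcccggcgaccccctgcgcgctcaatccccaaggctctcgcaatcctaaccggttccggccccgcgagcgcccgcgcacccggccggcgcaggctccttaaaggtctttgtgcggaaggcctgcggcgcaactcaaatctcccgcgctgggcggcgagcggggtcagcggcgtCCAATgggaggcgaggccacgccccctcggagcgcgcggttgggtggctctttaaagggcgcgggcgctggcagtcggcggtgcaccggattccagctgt
Ckap2l, chr2:129297163-129297462, minus strand: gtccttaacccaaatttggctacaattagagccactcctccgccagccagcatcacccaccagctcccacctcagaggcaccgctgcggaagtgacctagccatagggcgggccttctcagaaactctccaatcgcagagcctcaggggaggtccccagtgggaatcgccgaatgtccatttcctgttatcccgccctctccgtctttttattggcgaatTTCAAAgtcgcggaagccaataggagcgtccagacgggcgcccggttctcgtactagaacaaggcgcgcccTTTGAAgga

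Motifs were searched on both strands, as CCAAT, as TTTGAA or TTCGAA for the CHR, as TTTCCCGC, TTTCGCGC, TTTGCCGC or TTTGGCGC for E2F, and by name for the p53 half-site. No motif lies inside another, and the E2F and p53 searches were added after the gene values had been seen. In the Cdkn1a window the 2 p53 matches start 73 and 51 bases before a gene start, whereas a second Cdkn1a window held none. Of all 32851 windows, 8.36% held the p53 match, 2.26% the E2F strings, 37.4% CCAAT and 19.2% the CHR strings. Counting genes, 8 of 22 S phase genes tested with a window held an E2F string (36.4%), against 289 of 5749 genes tested with a window (5.03%) and 2.61% of all genes in the table. CHR strings were found for 36 of 47 G2/M genes tested (76.6%), against 17.3% of genes tested. The p53 match was found for 5 of 18 p53 targets tested (27.8%: Aen, Bax, Ccng1, Mdm2 and Polk), against 8.42% of genes tested. A match is only a run of letters and shows no binding.

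The Cdkn1a gene spans 29309953 to 29319696 on the plus strand of chromosome 17 (GRCm39). Its level ranged from 288 to 1110 CPM on the high side, with a median of 385 CPM. On the low side it ranged from 0 to 159 CPM, with a median of 95.8 CPM, and from 160 to 279 CPM in the cells between. All but 1 of the 37 cells held Cdkn1a reads, and the ranking cut a continuous range: the last high cell (A6) had 288 CPM and the next below it (B5) 279 CPM, and the highest low cell (D9) had 159 CPM and the next above it (C1) 160 CPM. Of the low cells, C11 had no Cdkn1a count and A11 had 1.94 CPM. Among the 29 control cells, 18 had a count, the median was 13.3 CPM and the highest was 443 CPM, so some untreated cells lay within the range of the high side.

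**Figure D1:**
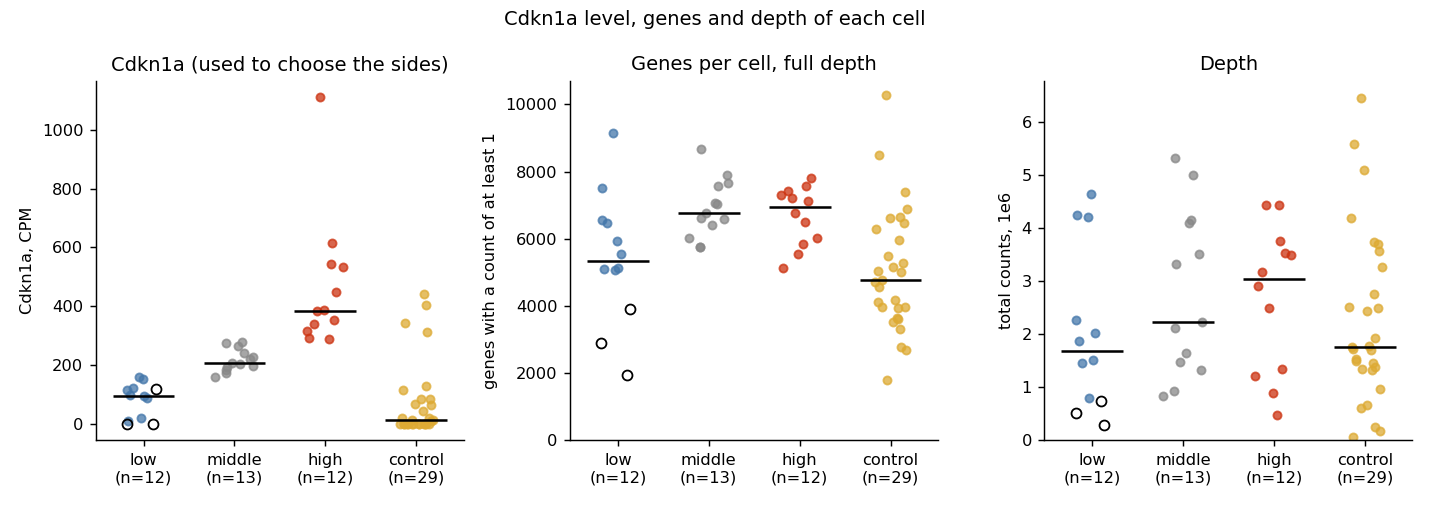
Cdkn1a CPM, genes with a count of at least 1 and total counts (in units of 1e6) of each cell, for low, middle and high RO-3306 cells and for control cells; each point is a cell and each black bar a median. The 3 low cells drawn as open circles had under 4000 genes, and the medians of genes were 5351.5 on the low and 6944 on the high side.

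The sides differed in depth. Median totals were 3045500 counts on the high side (475882 to 4443650) and 1693180 on the low side (295005 to 4646750). Genes per cell had medians of 6944 (5143 to 7817) and 5351.5 (1961 to 9148), and the ranges overlapped. Thinned to 780000 reads each, 11 high cells had a median of 6282 genes and 9 low cells 5067. Over the 37 cells, Spearman's correlation of Cdkn1a CPM was 0.33 with total counts and 0.43 with genes, and 0.19 with genes in the 33 cells at equal depth, where Cdkn1a CPM and gene number share a library. Of the low cells, A11, B3 and C11 had 2894, 3901 and 1961 genes and mitochondrial shares of 18.1%, 56.0% and 2.06%, whereas no high or middle cell had under 4000 genes. The lists below, and the genes whose call changes, are therefore also given without these 3 cells, an alternative chosen after seeing the data. The part of depth and library quality in the differences was not tested beyond this. The title letters A to D, whose meaning is not given, were spread over both sides as 4, 3, 2 and 3 high cells and 2, 3, 4 and 3 low cells.

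Genes were compared by the log2 ratio of mean CPM, high over low, with 1 CPM added to each mean, which understates the ratio of low genes. A gene was past the fold when this ratio was at least 1 in size, stayed so with each of the 24 cells left out in turn, and the medians over cells lay in the same order. Of 7081 genes tested (a mean of at least 10 CPM with reads in at least 25% of the 37 cells), 643 were past the fold higher on the high side (9.08%) and 161 lower (2.27%). The median ratio was 0.20. Without the 3 cells of few genes it was 0.06, and 542 genes (7.59%) were higher and 231 (3.23%) lower of 7142. Past the fold in both were 423 genes higher (5.97%) and 113 lower (1.60%). The shares of 9.08% higher and 2.27% lower, or 7.59% and 3.23% without the 3 cells, are the background for the list counts below. With counts thinned to equal depth, 443 were higher and 252 lower. The ranges over cells of the 2 sides overlapped for every one of the 7081 genes, so no single transcript other than Cdkn1a separated the sides.

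Among p53 targets, 22 of 30 were tested, and 6 were past the fold (27.3%, against 9.08% of all genes), all higher on the high side: Mdm2, Trp53inp1, Aen, Btg2, Gdf15 and Dcxr. Gdf15 (middle mean 13.3 CPM, low mean 0) and Btg2 (10.6 and 6.65 CPM) reached the mean of 10 CPM needed for testing only through the high cells. Such genes could hardly be counted as lower. The list median was 0.46, against 0.20 over all genes, with 15 members above 0 and 7 below. Without the 3 cells of few genes the median was 0.41 and 3 members were past the fold (Mdm2, Gdf15 and Dcxr). The list median was above 0 within each title letter, at 0.27, 1.24, 1.62 and 0.30 for A to D. Summed over the list, cells had a median of 3714 CPM on the high side (1383 to 8031) and 2405 CPM on the low side (1456 to 3630), with 1713 CPM in control cells (351 to 4654). The highest sums lay on the high side, but the ranges overlapped.

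Mdm2, the ubiquitin ligase that degrades p53 (GRCm39 chromosome 10, 117524780 to 117546663), ranged from 25.5 to 818 CPM on the high side (median 233) and from 0 to 342 CPM on the low side (median 87.0). Its log2 ratio was 1.45, and it was above 0 within each letter. Of the high cells, 10 exceeded the low median, and 1 low cell exceeded the high median. Control cells had a median of 3.52 CPM and a mean of 99.0 CPM.

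Dcxr, a dicarbonyl and L-xylulose reductase, ranged from 17.1 to 1280 CPM on the high side (median 207), and all 12 high cells exceeded the low median of 8.56 CPM. The low cells ranged from 0 to 294 CPM, for a log2 ratio of 2.56. The middle cells lay between, with a median of 68.0 CPM, and the control median was 0 CPM. Gdf15, a secreted stress cytokine, was at 0 in all 12 low cells and had counts in 6 of 12 high cells, up to 82.4 CPM. Against a floor of 3 counts over the low side, its summed counts were 212-fold higher on the high side. The exact 95% interval of the ratio, which includes the counting error of the high side, starts at 172.

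Ccng1, a cyclin G gene induced by p53, had medians of 731 CPM on the high side (0 to 2113) and 177 CPM on the low side (0 to 1343). Its log2 ratio of 1.10 came to 0.88 with 1 cell left out, so it was not past the fold. Trp53inp1, which promotes p53-dependent death and autophagy, had means of 107 and 32.6 CPM (log2 ratio 1.69), and Aen, a nuclease induced by p53, had 126 and 44.8 CPM (1.47). Btg2, an antiproliferative gene, had 33.8 and 6.65 CPM (2.19), with a count in 1 low cell. Without the 3 cells of few genes the ratios of Trp53inp1, Aen and Btg2 were 1.34, 1.06 and 1.82, none past the fold. Bax, which permeabilises mitochondria in apoptosis, had close medians of 491 and 398 CPM (0.35).

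**Figure D2:**
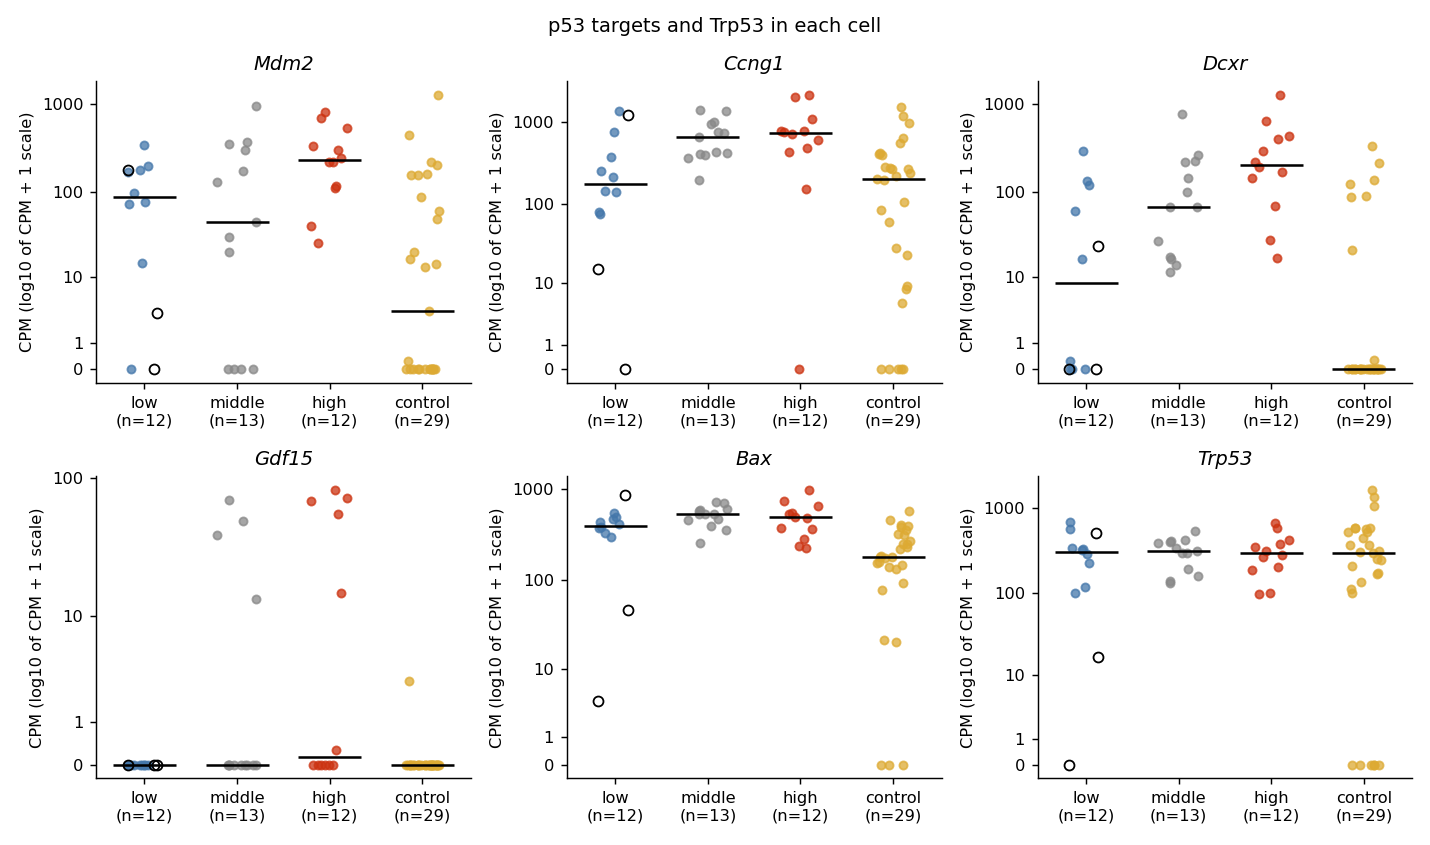
CPM of 5 p53 targets and of Trp53 in each cell, on a log10 scale of CPM + 1, for low, middle and high RO-3306 cells and for control cells; points are cells, black bars medians, and open circles the 3 low cells with under 4000 genes. Dcxr medians step from 8.56 CPM (low) through 68.0 (middle) to 207 CPM (high), whereas Trp53 medians lie between 290 and 308 CPM in all 4 groups.

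Transcript of p53 itself did not follow this order. Trp53 had a median of 297 CPM on the high side (96.4 to 668) and 305 CPM on the low side (0 to 683), a log2 ratio of 0.14 that was -0.04 without the 3 cells of few genes. The list of p53 regulators had a median of 0.03 over 12 tested genes (-0.18 without the 3 cells), with 1 past the fold. That gene was Atm, the kinase that signals DNA breaks, lower on the high side with means of 6.42 and 77.0 CPM and not past the fold without the 3 cells. Atm reached the mean of 10 CPM needed for testing only through the low cells. Of the other CDK inhibitors, none of 3 tested was past the fold. With the 3 cells left out, Cdkn3, a phosphatase that acts on CDKs, was past it lower, with a log2 ratio of -1.53 (-1.13 with all cells). Cdkn2a, which encodes p16 and ARF, was at 0 in all 37 cells. Cdkn1b (p27) had a count in 1 high and 3 low cells.

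S phase genes were on balance higher in cells with more Cdkn1a. Of 42 genes, 33 were tested, with a median log2 ratio of 0.61, 27 above 0 and 6 below. Past the fold were 10 (30.3%, against 9.08% of all genes), all higher, among them Fen1, Cdca7, Dtl, Atad2, Rrm2, Exo1, Casp8ap2 and Usp1. Without the 3 cells of few genes the median over 34 genes was 0.96, with 10 again past the fold, 7 of them shared. The median was above 0 within each letter, at 0.68, 1.16, 1.53 and 1.01. Summed CPM had medians of 3649 on the high side (2344 to 6233) and 2292 on the low side (249 to 6265), both under the control median of 4847 (780 to 24984).

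Rrm2, which supplies deoxynucleotides (GRCm39 chromosome 12, 24758253 to 24764145), had a median of 83.2 CPM on the high side (0 to 345) and 0 CPM on the low side (0 to 102), with counts in 9 and 3 of 12 cells. Its log2 ratio was 3.07 and between 3.13 and 6.68 within letters. Atad2, a chromatin ATPase, had medians of 132 CPM (5.21 to 302) and 3.40 CPM (0 to 120), and all 12 high cells exceeded the low median. Fen1, the flap endonuclease of lagging strand synthesis, had 89.1 CPM (0 to 258) and 0 CPM (0 to 149). Exo1, a repair exonuclease, had a count in 8 high cells and 1 low cell. Dtl, shown above, had 6 and 2 cells with a count, and its ratio of 1.63 was near 0 within letters A (0.09) and C (-0.08). Pcna, the clamp that p21 binds, had medians of 245 CPM (91.4 to 536) and 114 CPM (0 to 1107), but means of 247 and 210 CPM (log2 ratio 0.23, or 0.79 without the 3 cells). The spans of Fen1, Dtl and Exo1 each overlap another gene on GRCm39, which can remove reads from the count.

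Genes of G2 and mitosis were less shifted. All but 2 of 55 were tested, with a median of 0.43, 37 above 0 and 16 below, and 6 were past the fold (11.3%, near the 9.08% of all genes), all higher: Nusap1, Tpx2, Nuf2, Tmpo, Tacc3 and Ckap2l. Without the 3 cells the median was 0.32 over 51 genes, again with 6 past the fold, of which 2 were shared (Tpx2 and Tmpo). With counts summed over the cells of a side, which gives deep libraries more weight, the median was 0.04. The median was not of one sign within letters (3.52, 0.32, 0.69 and -0.07). Summed CPM had medians of 9366 on the high side (7134 to 13217), 8018 on the low side (208 to 13352) and 7257 in control (600.3 to 18878). The low cells spread far more widely than the high cells, but so did the middle cells (1830 to 17240.5) and the control cells.

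Tpx2, which activates Aurora A on the spindle (GRCm39 chromosome 2, 152689859 to 152737241), had a median of 110 CPM on the high side (0.51 to 399) and 9.31 CPM on the low side (0 to 81.2). Its log2 ratio was 2.79 and between 1.56 and 3.71 within letters, and no low cell exceeded the high median. Ckap2l had medians of 219 CPM (0 to 364) and 0 CPM (0 to 388). The mitotic kinase Cdk1, named as the target of RO-3306, had medians of 490 CPM (147 to 1013) and 565 CPM (0 to 913), a log2 ratio of -0.03. Ccnb1, its cyclin, had 238 CPM (0 to 459) and 168 CPM (0 to 780), a log2 ratio of -0.19. Ccna2 had means of 104 and 90.4 CPM (0.19). Mki67 had a count in 5 high cells and 1 low cell, with a median of 0 CPM on both sides and in control. It reached the mean of 10 CPM needed for testing only through the high cells. Top2a, the topoisomerase of mitotic chromosomes, had means of 87.8 and 23.9 CPM (1.83), not past the fold with 1 cell left out.

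**Figure D3:**
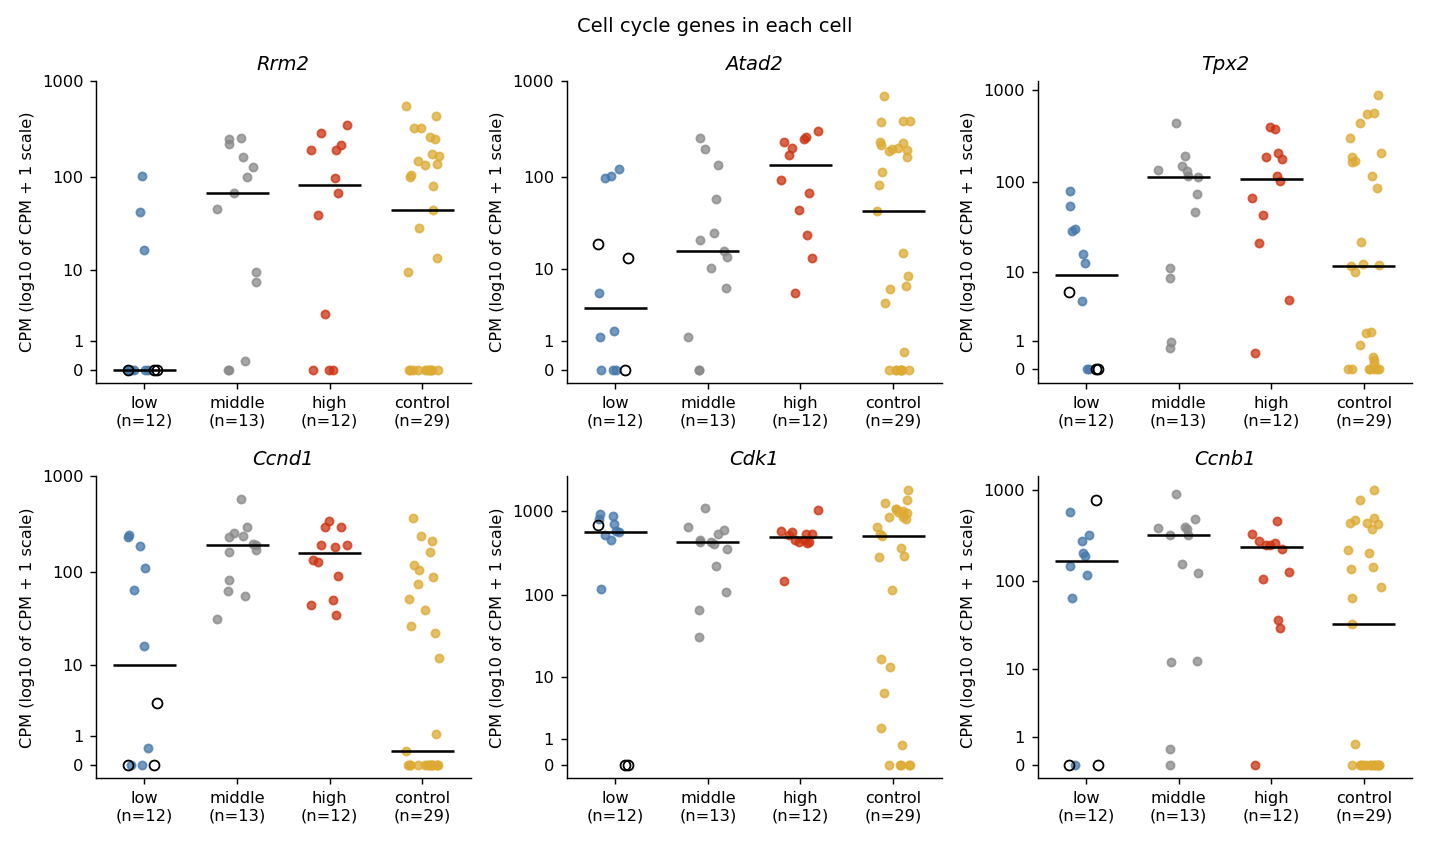
CPM of 6 cell cycle genes in each cell, on a log10 scale of CPM + 1, for low, middle and high RO-3306 cells and for control cells; points are cells, black bars medians, and open circles the 3 low cells with under 4000 genes. Medians of Rrm2, Atad2 and Tpx2 are higher on the high than on the low side (83.2 against 0, 132 against 3.40 and 110 against 9.31 CPM), whereas those of Cdk1 are 490 and 565 CPM.

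The G1 cyclins, their kinases, RB and E2F genes had a median of 0.52 over 16 tested. Past the fold were 5 (31.25%, against 9.08% of all genes), all higher: Ccnd1, Ccnd3, Rb1, E2f4 and Lin9. The median was 0.70 without the 3 cells, and Rb1, E2f4 and Lin9 were past the fold. Within letters A to D the median was 1.28, 1.19, 0.05 and -0.008. In the middle cells 8 of these 16 genes correlated positively with Cdkn1a (median 0.07), and in control cells 10 of 16 (0.06). Ccnd1, cyclin D1, had a median of 159 CPM on the high side (35.4 to 340), and all 12 high cells exceeded the low median of 9.93 CPM (0 to 243). Its log2 ratio was 1.19, and 0.79 without the 3 cells, no longer past the fold. The middle cells had a median of 191 CPM, above the high side, and control cells 0.40 CPM. Rb1, the retinoblastoma protein, had counts in 6 high and 2 low cells (means of 29.1 and 0.70 CPM). Lin9, a subunit of the DREAM and MuvB complexes, had means of 42.9 and 0.14 CPM, but a median of only 0.27 CPM on the high side. Rb1 and Lin9 reached the mean of 10 CPM needed for testing only through the high cells. E2f4, the E2F that works mainly in repression, had medians of 20.9 and 0.34 CPM (log2 ratio 1.86, but -2.17 within letter C). The spans of Ccnd1, Ccnd3 and Rb1 overlap other genes.

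DNA repair genes had a median of 1.27 over 16 tested, which was 0.54 over 17 without the 3 cells. Within letters A to D the median was 3.23, 2.85, 1.73 and 0.004. In the middle cells 8 of these 16 genes correlated positively with Cdkn1a (median -0.02), and in control cells 13 of 16 (0.08). Past the fold higher in both comparisons were 3 (18.75%, against 9.08% of all genes), among them Palb2 and Nbn. Ercc1, of nucleotide excision repair, was past it lower in both, as were 2.27% of all genes with all cells. Its ratio of -1.29 was 3.85 within letter A, -3.91 within B, -5.49 within C and -1.86 within D. The span of Ercc1 overlaps 2 other genes. Palb2, a partner of Brca2, had counts in 11 high and 3 low cells, but a high median of only 1.22 CPM, so its mean of 45.8 CPM came from few cells. Nbn, of the break sensor complex, had means of 49.7 and 7.45 CPM, with a high median of 3.37 CPM. Palb2 and Nbn reached the mean of 10 CPM needed for testing only through the high cells.

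Sterol genes had a median above that of all genes. Of 19 genes of cholesterol synthesis and uptake, 10 were tested, with a median of 1.07 (0.71 without the 3 cells) and 3 past the fold in both comparisons, all higher. These 3 were 30% of the genes tested, against 9.08% of all genes, or 7.59% without the 3 cells. In the middle cells 3 of these 10 genes correlated positively with Cdkn1a (median -0.15), and in control cells 9 of 10 (0.13). Sqle, squalene epoxidase, had medians of 133 CPM on the high side (0 to 348) and 0 CPM on the low side (0 to 137), a log2 ratio of 2.37. Srebf2, the transcription factor of the pathway, had a count in 7 high and 2 low cells, and its means were 28.9 and 2.13 CPM. Cyp51, lanosterol demethylase, was at 0 in all 12 low cells and had counts in 6 high cells. Against a floor of 3 counts over the low side, its summed counts were 267-fold higher, with an interval that starts at 216. Cyp51 reached the mean of 10 CPM needed for testing only through the high cells. Control cells had a sum over the list of 593 CPM at the median, above both the high (392) and the low side (146).

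Lysosomal genes had a median of 0.19 over 27, close to that of all genes. Past the fold were 5 (18.5%, against 9.08% of all genes), all higher, among them Lamp1, Scarb2, Tcirg1 and Tfeb. Leaving out the 3 cells gave a median of 0.13 and 4 past the fold. Lamp1, an abundant lysosomal membrane protein, had medians of 963 CPM (331 to 1592) and 311 CPM (0 to 932), and all 12 high cells exceeded the low median. Its log2 ratio was 1.31, and 0.91 without the 3 cells, no longer past the fold. Tfeb, a master regulator of lysosomal genes, had means of 32.7 and 7.17 CPM, and its ratio of 2.05 was -2.23 within letter D. Scarb2 and Tfeb reached the mean of 10 CPM needed for testing only through the high cells. Cd68, a lysosomal protein best known from macrophages, had medians of 248 and 128 CPM (0.60, or 0.19 without the 3 cells) and 374 CPM in the middle cells, and was at 0 in all but 1 control cell.

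Other stress programmes had medians between -0.28 and 0.23, against 0.20 over all genes. The integrated stress response had a median of 0.23 over 19 genes, with Herpud1 (ER-associated degradation) past the fold higher and Aldh1l2 (mitochondrial folate metabolism) lower. The median was 0.30 without the 3 cells, and Aldh1l2 was no longer past the fold (-1.59). Ddit3, which encodes CHOP, had medians of 399 CPM on the high side (157 to 1543) and 595 CPM on the low side (0 to 1664). NRF2 targets had a median of 0.21 over 23 with Pgd, of the pentose phosphate pathway, lower. The direction of Pgd was not the same in every letter: its ratio of -2.10 was 2.87 within A, 4.17 within B, -2.53 within C and -1.69 within D, and 0.16 without C. The list median was 0.02 without the 3 cells, and Gclc, a subunit of the enzyme of glutathione synthesis, was past the fold higher as well (1.98). The aryl hydrocarbon receptor battery had -0.01 over 6 (0.01 without the 3 cells), and Aldh3a1, an aldehyde dehydrogenase of that battery, had medians of 335 and 406 CPM. ER chaperones (0.04 over 17, or 0.03 without the 3 cells) and interferon and MHC class I genes (-0.21 over 11, or -0.08) had no member past the fold. Cytosolic heat shock genes (-0.28 over 12, or -0.13) had Hspa4 higher, which was not past the fold without the 3 cells (1.51). Shares past the fold higher were 5.26% in the integrated stress response and 8.33% in the heat shock list, against 9.08% of all genes.

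For genes tied to senescence, the secretion list had a median of 0.41 over 15, with Ereg, an EGF receptor ligand, past the fold higher. It was 0.31 without the 3 cells, where the chemokine gene Cxcl1 (1.63) was past the fold higher as well, and Plaur, the urokinase receptor, was lower (-1.53). Of the nuclear envelope and HMG genes that are known to be lost in senescent cells, 7 were tested with a median of 0.67, and Tmpo (lamina-associated polypeptide 2) was higher, with medians of 146 and 1.69 CPM. In the set without the 3 cells, 8 were tested, with a median of 0.60 and 2 past the fold higher. The BCL2 family had a median of 0.88 over 7 (0.53 over 8 without the 3 cells), with the survival gene Bcl2l1 higher (medians of 45.1 and 0.82 CPM), which was not past the fold without the 3 cells. Immediate early genes had 0.18 over 12 (0.29 without the 3 cells) with Fosl2, an AP-1 subunit, higher. Glycolysis had -0.11 over 13 (0.02 without the 3 cells) with Hk1 and Pfkp higher, of which Pfkp was not past the fold without the 3 cells (1.27). Shares past the fold higher were 6.67% (secretion), 14.3% (nuclear envelope and HMG), 14.3% (BCL2), 8.33% (immediate early) and 15.4% (glycolysis), against 9.08% of all genes.

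Matrix and contractile genes (0.04 over 20), housekeeping genes (-0.04 over 12) and cytosolic ribosomal proteins (-0.02 over 79) had no member past the fold, with or without the 3 cells. Without them, the matrix median was 0.37, with 17 of 20 above 0 in place of 10, the housekeeping median 0.02, and the ribosomal median -0.16, with 63 of 79 below 0 in place of 46. The 13 mitochondrially encoded genes had a median of -1.19, with none past the fold, and -0.19 without the 3 cells, among them B3 with its mitochondrial share of 56.0%. The 7 mesenchymal markers tested had a median of -1.09, with 2 above 0 and 5 below, which turned to 0.18 without the 3 cells, with 4 above and 3 below. Of these, Cdh2, N-cadherin, was past the fold lower on the high side, with counts in 4 high cells and 8 low cells and means of 3.31 and 57.9 CPM. Its log2 ratio of -3.77 was -4.10 without the 3 cells. Lyz2, a macrophage lysozyme, had counts in 6 high and 2 low cells, and reached the mean of 10 CPM needed for testing only through the high cells.

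**Figure D4:**
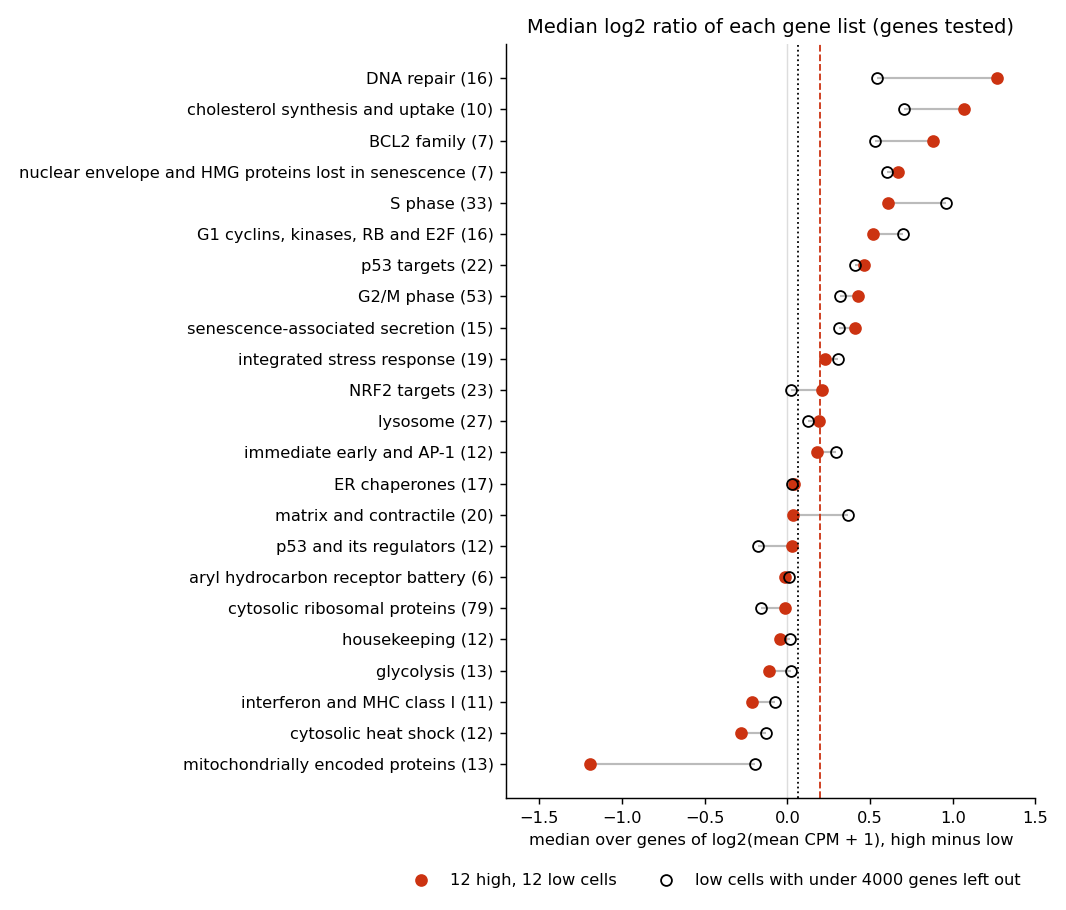
Median log2 ratio of mean CPM, high over low (horizontal axis), of each pathway list with at least 5 genes tested, cell type marker lists not drawn (their number in parentheses); filled red points use all 24 cells, open points leave out the 3 low cells with under 4000 genes, and the dashed and dotted lines are the medians of all genes, 0.20 and 0.06. Of the lists drawn, the mitochondrially encoded one moves most between the 2 sets of cells, from -1.19 to -0.19.

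The 12 highest ratios past the fold among genes of at least 50 CPM were those of Nxt2, Tbl1x, Herpud1, Ska2, Rrm2, Csgalnact2, 9530053A07Rik, Tpx2, Wdr45, Robo3, Dcxr and Mras, from 3.36 down to 2.52. Nxt2, Tbl1x, Herpud1, Csgalnact2 and 9530053A07Rik reached the mean of 50 CPM needed for naming only through the high cells. All 12 stayed past the fold without the 3 cells, and 11 were above 0 within each letter, the exception being Csgalnact2 (-2.28 in A). Of all 643 genes past the fold higher, 50.2% were above 0 within each letter. The 12 were picked for their ratios in these same cells, so neither check is independent of that choice. Nxt2, a nuclear RNA export factor, had a median of 57.7 CPM on the high side (0 to 368) and a count in 2 low cells. Ska2, which ties kinetochores to microtubules, had medians of 75.5 CPM (0 to 405) and 0 CPM (0 to 59.3), and no low cell exceeded the high median. Wdr45, an autophagy protein, had 91.4 CPM (0 to 177) and 0 CPM (0 to 34.5). Herpud1 had 105 CPM (0 to 456) and 0 CPM (0 to 129). Robo3, a guidance receptor, had 71.6 CPM (0 to 407) and 0 CPM (0 to 123), with counts in 3 of 29 control cells. In each of Nxt2, Ska2, Wdr45, Herpud1 and Robo3, between 2 and 4 high cells were at 0.

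The 12 lowest ratios, from -5.17 to -2.89, were those of Spopl, Zfpm2, Agfg1, Raph1, Bzw2, Mcmbp, Rad17, Ppp3ca, Atp2c1, Shc1, Ptprk and Khdrbs1. They rested more on single low cells, and 7 stayed past the fold without the 3 cells (Spopl, Agfg1, Bzw2, Rad17, Ppp3ca, Atp2c1 and Ptprk). All of the 12 but Ppp3ca reached the mean of 50 CPM needed for naming only through the low cells. Such genes could hardly be named among the highest. Spopl, a ubiquitin ligase adaptor, had medians of 4.93 CPM on the high and 5.57 CPM on the low side, and 1 low cell at 2026 CPM. Its ratio of -5.17 was -1.47 with 1 cell left out. Zfpm2, a GATA cofactor, had a ratio of -4.05 that was 0.17 without the 3 cells. Atp2c1, a Golgi calcium pump, had medians of 0.20 CPM (0 to 139) and 58.5 CPM (0 to 437), and a ratio of -3.10 that was -3.26 without the 3 cells. Ppp3ca, a calcineurin subunit, had 0.36 CPM (0 to 157) and 97.3 CPM (0 to 1059). Bzw2, a translation factor mimic, had 0 CPM (0 to 127) and 71.0 CPM (0 to 1199). Rad17, the loader of the checkpoint clamp, had 0 CPM (0 to 73.5) and 12.4 CPM (0 to 941).

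**Figure D5:**
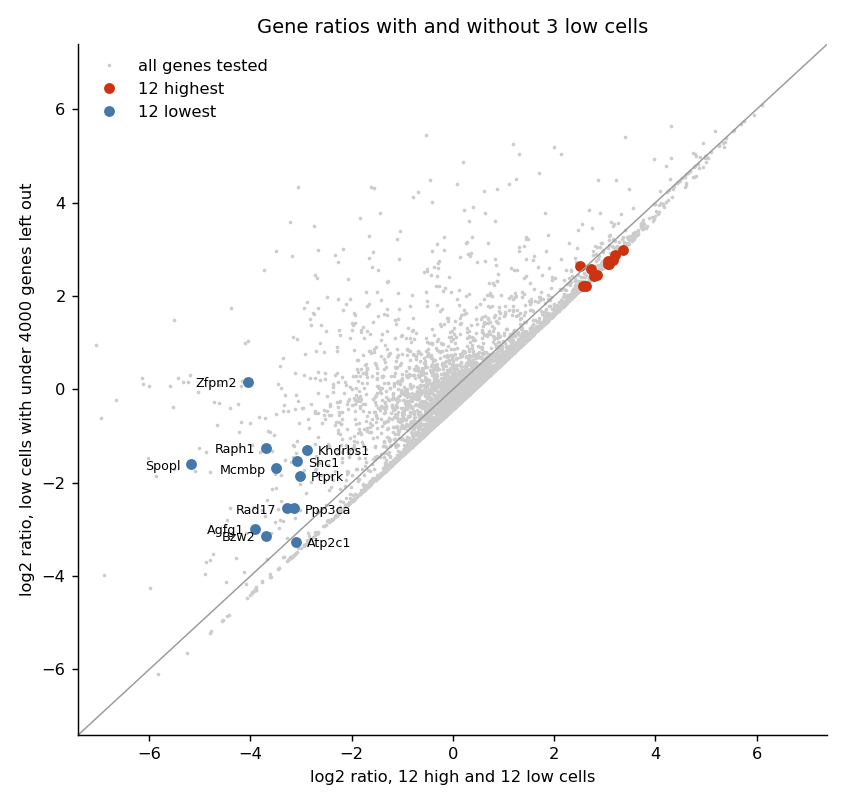
Log2 ratio of mean CPM, high over low, of each gene tested, with all 24 cells (horizontal axis) against the same without the 3 low cells with under 4000 genes (vertical axis); red and blue points are the 12 highest and 12 lowest ratios of genes of at least 50 CPM, and the line marks equality. Zfpm2 moves from -4.05 to 0.17 and Spopl from -5.17 to -1.60, whereas the red points stay near the line. Red and blue points were picked for their ratios in the 24 cells.

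Over all 37 cells, the transcripts whose CPM ranked most like Cdkn1a were Lamp1 (Spearman's correlation 0.65), Acot13 (0.63), Pmf1 (0.62), Sod2 (0.61), Capn1 (0.61), Il10rb (0.60), Dcxr (0.59), Atf1 (0.58), Rp9 (0.57) and Grsf1 (0.56), among genes of at least 50 CPM with reads in at least 50% of cells. These values were, without the 3 cells, between 0.47 and 0.56. Points share libraries and depth, and the values are descriptions. Acot13, an acyl-CoA thioesterase, had medians of 300 CPM on the high side (103 to 401), 169 CPM in the middle cells and 89.3 CPM on the low side (0 to 375). Sod2, mitochondrial superoxide dismutase, had 233 CPM (144 to 505), 132 CPM and 102 CPM (2.70 to 501). Capn1, a calcium-activated protease, had 173 CPM (21.3 to 644), 82.9 CPM and 26.6 CPM (0 to 120), with a control median of 0.34 CPM. These 3 genes were picked for their rank correlation with Cdkn1a over the same cells, so the order of their medians follows from that choice. Cells of neighbouring groups overlapped. Least alike were Rps6 (-0.52), Mrpl15 (-0.46), Psma5 (-0.44), Chchd6 (-0.44) and Zfp706 (-0.43). Rps6, a protein of the small ribosomal subunit, had medians of 397 CPM (264 to 681) and 619 CPM (364 to 973), and 11 of 12 low cells exceeded the high median.

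Cells that the comparison did not use were looked at for the same relation. Within the 13 middle cells, 53.8% of the 643 genes past the fold higher correlated positively with Cdkn1a, against 52.4% of all genes tested, and of the 161 lower genes 52.2% did. Within the 29 control cells these shares were 68.0%, 66.3% and 59.0%. The genes past the fold as a whole thus followed Cdkn1a in unused cells about as often as any gene. By list, 19 of 22 p53 targets correlated positively with Cdkn1a in control cells (median 0.24) and 16 of 22 in middle cells (median 0.24). Of the S phase genes, 22 of 33 did in control and 26 of 33 in middle cells, and of G2/M genes 46 of 53 and 43 of 53. The S phase share in control cells was near the 66.3% of all genes tested. Dcxr had 0.45 in control cells and 0.35 in middle cells, and Ccng1 0.49 and 0.67. Mdm2 had 0.27 and 0.37. Of the 6 targets past the fold, 3 correlated negatively in the middle cells, Gdf15 at -0.38, Trp53inp1 at -0.09 and Btg2 at -0.04. All genes in a cell share its depth, and no test was made.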

How the data were processed

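The authors deposited estimated counts of 40202 genes for each library. Per the file headers these came from featureCounts 2.0.3, run over whole gene spans of the RefSeq annotation of GRCm39. Multi-mapped reads were split into fractions, which left 4.25% of values over 1e-06 from a whole number. The headers name no strand option. FastQC and STAR are named in the submitters' processing notes, with no version. Reads over overlapping genes are left out by the tool's default.

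CPM were computed here from the deposited estimated counts. Means over cells gave each cell the same weight, and fractional counts were rounded for thinning, intervals and scaling factors. Sums of counts carry exact Poisson intervals in the underlying tables. Spearman's correlations, ratios and counts of genes are descriptions without a test, since each side is 1 sample. The members and gene lists were chosen with earlier results of these data known. Named genes were the 12 highest and 12 lowest ratios past the fold of at least 50 CPM, the 10 most and 5 least like Cdkn1a, fixed single genes and list members past the fold, of which a few are not reported here. Mitochondrial genes were taken by chromosome. Alternatives were counts summed over cells, thinning, ranking on thinned counts, TMM factors (edgeR 4.0.16), DESeq2 1.42.0 size factors, another pseudocount, other filters, and leaving out cells or title letters. The comparison was tested on simulated cells. Python 3.11.15, numpy 2.4.6, pandas 2.3.3, scipy 1.17.1 and R 4.3.3 were used. Gene spans are on GRCm39 and promoter windows on GRCm38.p6, and no coordinates were moved between them.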

Additional observations from a re-analysis of the deposited data

Results flagged for a closer look

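Cdkn1a reads also appeared in libraries left out for under 50000 counts or under 1000 genes. The 11 such RO-3306 libraries held 147 Cdkn1a counts, or 126 CPM of their summed counts (107 to 149, exact Poisson interval). The 19 left-out control libraries held 2.25 counts in 3 libraries, or 6.60 CPM (0.71 to 21.2). Of the 147 counts, 136 came from the library labelled D4, which had 184369 counts but 759 genes, and 7 from B8, and 4 of the 11 RO-3306 libraries had a count. These libraries enter no comparison above.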

How the results depend on the processing

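Of 1498 values of 103 results under the alternatives, 1469 kept their direction and stayed within the spread or 1.5 times the reported count, 24 moved further and 5 changed sign. The 643 genes higher became 381 with a pseudocount of 10 CPM and 167 with a mean of at least 50 CPM. The 161 genes lower became 88 and 39 under these settings, 252 with counts thinned to equal depth, 245 without letter A and 287 without letter C. Fewer genes are tested at 50 CPM. A pseudocount of 10 CPM makes every ratio smaller in size by its formula. For thinning and the letters the cause was not tested. At equal depth, the median of genes per cell on the high side was 5399 when 5 counts were asked per gene, and that on the low side was 6222.5 without letter C. The p53 target median lay between 0.31 and 0.83, the S phase median between 0.54 and 1.15 and the G2/M median between 0.04 and 0.63. Zfpm2 changed sign to 0.33 with thinned counts, 0.60 with ranks on thinned counts, and 0.17 and 0.16 without cells under 4000 genes, with library totals and with TMM factors. Pgd came to 0.16 without letter C. TMM and DESeq2 factors brought the median of all genes from 0.20 to 0.19 and 0.16. Ranked on thinned counts, all 11 high cells were shared and 8 of 11 low cells. Depth limits the low genes, whose reads were found in few cells. No paired analysis was possible because both sides come from the RO-3306 cells, and the title numbers shared with control name single cells.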
